A study of Homo sapiens with 8 samples.

Results

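The MAP kinase phosphatases are dual-specificity phosphatases that switch off MAP kinases, the ERK, JNK and p38 enzymes, by removing phosphate from the threonine and the tyrosine of their activation loop. The 10 catalytically active members, DUSP1, DUSP2, DUSP4, DUSP5, DUSP6, DUSP7, DUSP8, DUSP9, DUSP10 and DUSP16, were taken by gene symbol, and each had exactly 1 line among the 58395 genes of the count table. Their mRNA was sequenced in 8 polyA libraries of iCell DopaNeurons, commercial human dopaminergic neurons differentiated from induced pluripotent stem cells. In the GDNF group, 4 libraries came from neurons kept for 4 days on coverslips with a nanostructure coating built to act like GDNF (glial cell line-derived neurotrophic factor). In the CT group there were also 4 libraries. What CT stands for is not written out in the labels. It is read here as the scrambled nanostructure, the comparator in the series design, although the treatment protocol given for every sample, CT included, names only the GDNF mimetic coating. Neurons of both groups received fresh medium a single time, 24 h after plating, and the label gives 10.73 mM as the treatment of both groups, so dose was not a variable. The series design speaks of 3 biological replicates per condition, and the labels do not say whether the 4 libraries of a group came from separate cultures, so p values measure the spread between these libraries, which may be technical.

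GDNF signals through its receptor RET, whose tyrosine kinase feeds the RAS, RAF and ERK cascade. Several MAP kinase phosphatase genes are themselves transcribed in response to MAP kinase activity, so that the enzymes form a negative feedback loop. By custom the family is divided by where its proteins act and on what. DUSP1, DUSP2, DUSP4 and DUSP5 are nuclear and inducible, DUSP6, DUSP7 and DUSP9 are cytoplasmic and prefer ERK, and DUSP8, DUSP10 and DUSP16 prefer JNK and p38.

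Among the parts of sequence that the members share is the catalytic loop, and it is shown here because it holds the catalytic cysteine. The coding sequences of 9 members were read from the GENCODE 29 transcripts (GRCh38), and each of these held the loop at 1 place. DUSP4 was not included. The 24 bases below are the 8 codons of that loop, 5′ to 3′ on the coding strand, from the histidine codon to the arginine codon, with the codon of the catalytic cysteine in capitals.
DUSP1: cacTGCcaggcaggcatttcccgg
DUSP2: cacTGCcaggcgggtatctcgcgc
DUSP5: cacTGTgaggctgggatctcccgt
DUSP6: catTGCttggctggcattagccgc
DUSP7: cacTGCctggcaggcatcagccgc
DUSP9: cacTGCttggcgggggtcagccgt
DUSP8: cacTGTctggctggcatctcccgc
DUSP10: cacTGCcaggctggggtgtcccgc
DUSP16: cacTGTttagctgggatctcccgc
The bases were identical in all 9 sequences at 11 of the 24 positions. Relative to DUSP1, the loop of DUSP2, DUSP7, DUSP8 and DUSP10 differed at 5 bases each and that of DUSP9 at 9, the most of the 8. The cysteine is codon 258 of 367 in DUSP1, codon 293 of 381 in DUSP6 and codon 244 of 665 in DUSP16, whose protein continues farthest beyond the loop.

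The libraries held 29532090 to 34559240 counts in GDNF and 28698283 to 31692788 counts in CT. All 7 markers of neurons averaged at least 5 CPM (counts scaled to the same library size), as did 9 of 12 dopaminergic markers. DDC, the dopa decarboxylase, averaged 335 CPM over the 8 libraries, while the dopamine transporter SLC6A3 averaged 0.547 CPM. Of other cell types, 1 of 7 astrocyte markers (SLC1A2), 1 of 6 oligodendrocyte markers (MBP), 3 of 7 progenitor markers, 3 of 6 fibroblast markers and none of 6 microglial or endothelial or of 5 pluripotency markers averaged 5 CPM or more. The summed astrocyte markers ranged from 254 to 321 CPM in GDNF and from 155 to 336 CPM in CT, almost all of it SLC1A2, and GFAP averaged 0.395 CPM. The library of CT replicate 2 differed most from the rest. Relative to them, its low-GC genes (lowest quartile of transcript GC content) had a median log2 deviation of -0.85 and its high-GC genes of 0.55. In the other libraries these medians lay between -0.22 and 0.30. Member values are therefore also given with that library left out.

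No member differed between GDNF and CT by more than the spread between libraries. All 10 members passed the filter on low counts, and 0 of 10 were called at an adjusted p under 0.05 (edgeR quasi-likelihood test, adjusted over all genes), beside 0.0% of the 19999 genes tested. At an unadjusted p under 0.05 the count of members was again 0, where 0.88% of all genes reached it, and DESeq2 and limma-voom also gave 0 members at either threshold. The fitted level was higher in GDNF for 2 members and lower for 8, with a median log2 fold change of -0.048, beside 47.6% of all genes higher and a median of -0.0098 over all genes. Without CT replicate 2 the same count was 6 higher and 4 lower, with a median of 0.053. The log2 fold change was then 0.060 for DUSP4, 0.081 for DUSP5, -0.11 for DUSP6 and 0.087 for DUSP9. It was -0.12 for DUSP10 and -0.094 for DUSP16, and the values of the other members are given with each gene. The groups overlapped in all 10 members, beside 0.93% of all genes whose groups did not overlap. The 95% confidence interval of every member lay inside a 1.5-fold change either way, the widest bounds being 0.699-fold for DUSP8 and 1.40-fold for DUSP9, beside 52.5% of all genes tested and 79.3% of those of at least 5 CPM. In some alternative fits the interval of DUSP2, DUSP8, DUSP9 or DUSP10 passed that limit, reaching a log2 value of -0.65 for DUSP8 without GDNF replicate 3 and 0.62 for DUSP9 without GDNF replicate 1. In bulk RNA, fewer cells that express a gene and less RNA per cell cannot be told apart.

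**Figure D1:**
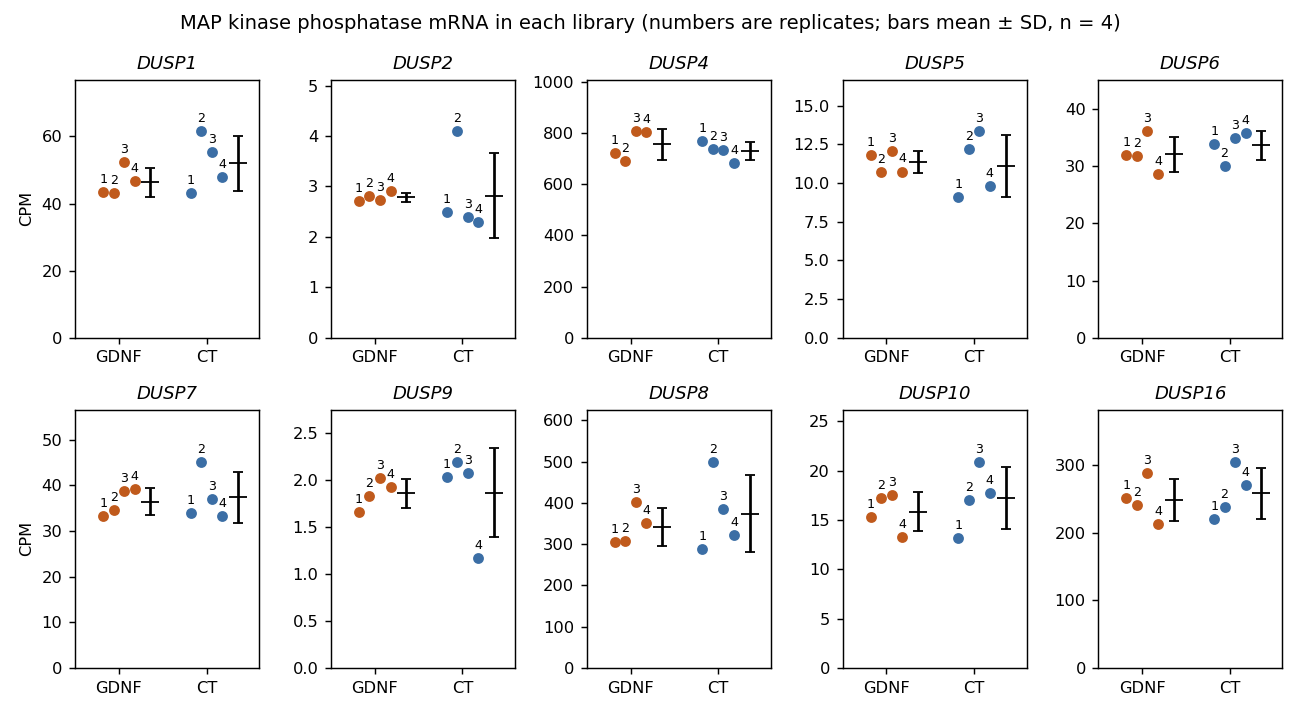
CPM (vertical axis, from 0) of each member in the 4 GDNF and 4 CT libraries. Points are libraries numbered by replicate and bars are the mean ± SD (n = 4 each). The groups overlap in all 10 panels, and CT replicate 2 is the highest library for 5 members.

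DUSP4 was the most abundant of the nuclear, inducible phosphatases and of the whole family. It is a gene of chromosome 8 (ENSG00000120875) whose protein dephosphorylates ERK, JNK and p38 in the nucleus. DUSP4 stood at 720, 689, 806 and 805 CPM in GDNF replicates 1 to 4, against 768, 736, 732 and 682 CPM in CT replicates 1 to 4. The highest values were GDNF replicates 3 and 4 and the lowest was CT replicate 4, with GDNF replicates 1 and 2 inside the CT range. Its log2 fold change was 0.050 (95% confidence interval -0.18 to 0.28), with an adjusted p of 0.9999 from the edgeR quasi-likelihood test over all genes. Its coefficient of variation was 7.89% among the GDNF libraries and 4.86% among the CT libraries, beside medians of 10.02% in GDNF and 20.7% in CT over the 11820 genes of at least 5 CPM. Without CT replicate 2 the CT value of DUSP4 was 5.92%, beside a median of 8.47%.

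DUSP1 (ENSG00000120129, chromosome 5, 172768090 to 172771195 in GRCh38) is an immediate early gene whose nuclear product acts on p38, JNK and ERK. It stood at 43.3, 43.0, 52.4 and 46.6 CPM in GDNF, against 43.2, 61.5, 55.5 and 47.8 CPM in CT. CT replicates 2 and 3 lay above every GDNF library, and CT replicates 1 and 4 lay within the GDNF range. Its log2 fold change was -0.17 (-0.48 to 0.15), with the smallest p of the family but an adjusted p of 0.9999 (edgeR). A two-sided exact permutation test of log2(CPM + 1) gave p = 0.257 for DUSP1, where 4 against 4 libraries allow no p below 0.0286. Without CT replicate 2 the value was -0.072 (-0.31 to 0.17).

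DUSP5, a nuclear phosphatase specific for ERK, and DUSP2, best known from activated immune cells, were far less abundant. DUSP5 stood at 11.8, 10.7, 12.1 and 10.7 CPM in GDNF, against 9.09, 12.2, 13.3 and 9.83 CPM in CT. The 4 GDNF values fell within the range of the CT values, and the log2 fold change was 0.029 (-0.31 to 0.37). The processed pseudogenes DUSP5P1 and DUSP5P2 held 22.5% as many counts as DUSP5, nearly all in DUSP5P1 (47 to 110 counts per library), so reads of the gene and of its copy may be mixed and the level of DUSP5 is uncertain. DUSP2 stood at 2.71, 2.80, 2.72 and 2.91 CPM in GDNF, against 2.50, 4.09, 2.39 and 2.30 CPM in CT. The GDNF libraries lay close together, above 3 of the CT libraries and below CT replicate 2. Its counts were 69 to 123 per library. The log2 fold change of DUSP2 was -0.017 (-0.48 to 0.45) with all libraries and 0.22 (-0.14 to 0.59, edgeR adjusted p = 0.996) without CT replicate 2. Without that library DUSP2 was the 1 member whose groups did not overlap, beside 3.99% of all genes.

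The cytoplasmic phosphatases that act on ERK were present at moderate or low levels. DUSP6, a target of ERK signalling in many tissues and selective for ERK, stood at 32.0, 31.8, 36.1 and 28.7 CPM in GDNF, against 33.9, 30.1, 34.9 and 35.8 CPM in CT. The lowest and the highest library were both GDNF libraries, and the log2 fold change was -0.067 (-0.34 to 0.21). Annotated exons of AC024909.2 on the other strand cover 40.5% of the exonic bases of DUSP6, and that gene held 2 to 11 counts per library, against 848 to 1136 for DUSP6. Whether strand was used in counting is not given in the sources used here.

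DUSP7, its close relative, stood at 33.2, 34.7, 38.7 and 39.1 CPM in GDNF, against 34.0, 45.2, 37.0 and 33.2 CPM in CT. CT replicate 2 was the highest library, CT replicates 1 and 3 lay among the GDNF values, and CT replicate 4 lay just below them. The log2 fold change of DUSP7 was -0.036 (-0.34 to 0.27) with all libraries and 0.074 (-0.14 to 0.29) without CT replicate 2. DUSP9, an X-linked gene known from placenta and kidney, was barely present, at 1.66, 1.83, 2.02 and 1.93 CPM in GDNF, against 2.03, 2.20, 2.07 and 1.17 CPM in CT. CT replicate 4 was the lowest library with 37 counts, and the other 3 CT libraries lay above every GDNF library. Its log2 fold change was -0.0065 (-0.50 to 0.49).

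Among the phosphatases that prefer JNK and p38, DUSP8 and DUSP16 were abundant and DUSP10 was not. DUSP8 (ENSG00000184545, chromosome 11, 1554044 to 1571920), known for its expression in brain and heart, stood at 304, 308, 402 and 350 CPM in GDNF, against 288, 500, 384 and 321 CPM in CT. CT held both the highest library, replicate 2, and the lowest, replicate 1. The log2 fold change of DUSP8 was -0.13 (-0.52 to 0.26) with all libraries and 0.047 (-0.21 to 0.30) without CT replicate 2. Its pseudogenes DUSP8P3, DUSP8P4 and DUSP8P5 held 1.82% as many counts as the gene.

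DUSP16 (ENSG00000111266, chromosome 12, 12474210 to 12562383) encodes a phosphatase that binds JNK and p38 and shuttles between nucleus and cytoplasm. It stood at 251, 241, 289 and 213 CPM in GDNF, against 220, 238, 306 and 271 CPM in CT. The groups overlapped over most of their range, with a log2 fold change of -0.059 (-0.37 to 0.25). DUSP10, which acts on p38 and JNK and is known from immune cells, stood at 15.3, 17.2, 17.5 and 13.3 CPM in GDNF, against 13.2, 17.001, 20.9 and 17.7 CPM in CT. The lowest and the highest library were both CT libraries, and the log2 fold change was -0.12 (-0.48 to 0.25).

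**Figure D2:**
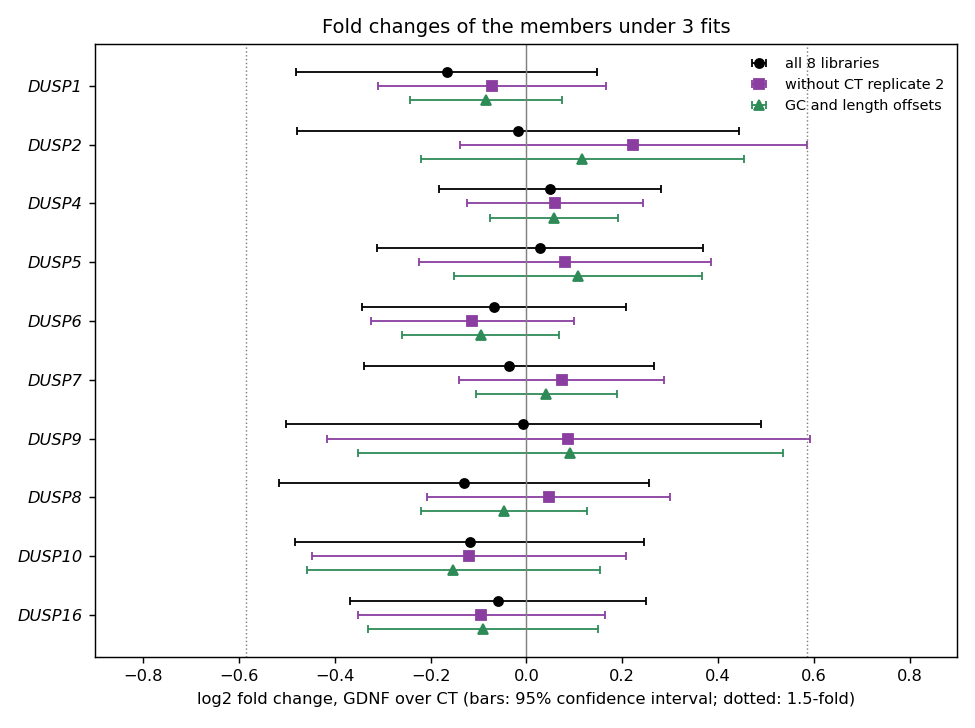
Log2 fold change of GDNF over CT (horizontal axis) for each member, with 95% confidence intervals, from edgeR with all 8 libraries, without CT replicate 2 and with offsets for GC content and length. Dotted lines mark a 1.5-fold change, and every interval of the 3 fits includes 0.

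Levels of different genes were compared per kilobase of exon. On that scale DUSP4 averaged 102 CPM per kb over the 8 libraries, DUSP8 77.4, DUSP16 44.3 and DUSP1 24.3 CPM per kb. DUSP6 averaged 7.10, DUSP7 6.53, DUSP10 5.67 and DUSP5 4.29 CPM per kb, while DUSP2 averaged 1.45 and DUSP9 0.671 CPM per kb. DUSP4, DUSP8 and DUSP16 together made up 81.0% to 82.6% of the summed level of the family in every library. DUSP4 stood above 98.8% of the genes tested and DUSP8 above 98.2%, whereas DUSP9 stood above 23.4%.

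The order of the upper members was the same in nearly every library. DUSP4 lay above DUSP8 in 7 of 8 libraries, the exception being CT replicate 2 with 101 CPM per kb of DUSP4 and 108 CPM per kb of DUSP8. DUSP8 lay above DUSP16, DUSP16 above DUSP1 and DUSP1 above DUSP6 in all 8 libraries without overlap of their ranges. DUSP6 and DUSP7, and likewise DUSP7 and DUSP10, did not differ beyond their spread, the more abundant of each pair being higher in 6 of 8 libraries. DUSP10 lay above DUSP5 in all 8 libraries although their ranges overlapped. With the longest transcript as the length, DUSP7 (11.04 CPM per kb) came above DUSP6 (7.48 CPM per kb), and no other pair changed places.

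The shares of the summed level held by the leading members were compared as well. DUSP4 made up 38.6 ± 1.74% of the summed level per kilobase in GDNF and 36.4 ± 4.05% in CT, and DUSP8 27.3 ± 1.33% in GDNF and 28.7 ± 4.40% in CT (SD, n = 4 each). The share of DUSP16 averaged 16.1% in GDNF (13.7% to 17.2%) and 16.3% in CT (13.4% to 18.2%). The share of DUSP1 was 8.51 ± 0.0764% in GDNF and 9.21 ± 0.554% in CT. It is singled out because the difference was larger than either SD, as for no other member. The DUSP1 ranges overlapped (8.41% to 8.60% in GDNF and 8.51% to 9.84% in CT). CT replicate 2 held the lowest share of DUSP4 (32.8%) and the highest of DUSP8 (35.0%) and DUSP1 (9.84%). The shares were not computed without that library. The summed level of the 10 members was 270 ± 23.3 CPM per kb in GDNF and 278 ± 27.6 CPM per kb in CT. The nuclear members summed to 133 ± 10.2 CPM per kb in GDNF and 132 ± 6.86 in CT. The cytoplasmic members reached 14.1 ± 0.894 CPM per kb in GDNF and 14.6 ± 0.620 in CT. Those that prefer JNK and p38 reached 123 ± 13.9 CPM per kb in GDNF and 132 ± 22.2 in CT. Each of these sums differed between the groups by less than the SD of either.

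**Figure D3:**
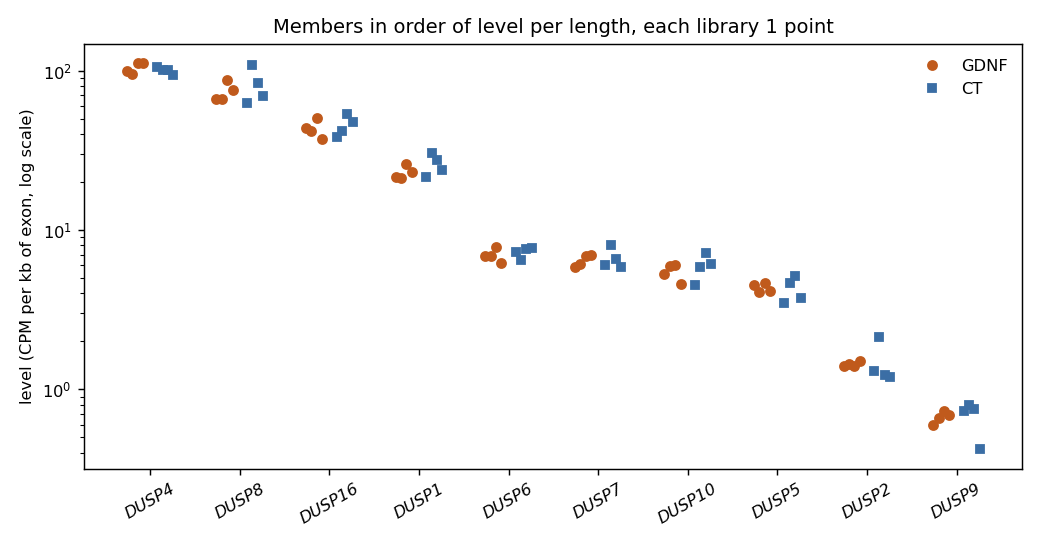
Level of each member in CPM per kilobase of exon (vertical log axis), in order of the mean over 8 libraries, with the GDNF libraries as circles left of the CT libraries as squares. DUSP4 and DUSP8 lead and DUSP9 is lowest in every library.

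The deviation of CT replicate 2 went with GC content in most of the family. Transcripts of 7 members had a GC content above the median of 47.9% for genes of at least 5 CPM, and 4 of these lay above the upper quartile of 56.0%. CT replicate 2 was the highest of the 8 libraries for DUSP1, DUSP2, DUSP7, DUSP8 and DUSP9, whose GC content was 55.1% to 65.6%. It stood at 1.56 times the median of the other 7 libraries for DUSP8 (GC content 64.6%) and at 1.51 times for DUSP2 (63.9%). For DUSP6 (46.7%) and DUSP16 (47.1%) it stood at 0.889 and 0.948 times that median. DUSP5 (55.9%) lies within the GC range above, but CT replicate 2 was not its highest library and stood at 1.14 times the median. For DUSP9, whose GC content of 65.6% was the highest of the family, it also stood at only 1.14 times. For DUSP10, whose GC content of 45.6% was the lowest of the family, it stood at 0.986 times. DUSP4, with a GC content of 51.3%, stood at 1.01 times. Over the 10 members, the log2 deviation of that library and GC content had a Pearson correlation of 0.863 and a Spearman correlation of 0.745, and all points share this library. With offsets for GC content and length, the members split into 5 higher and 5 lower in GDNF, and again 0 were called. The log2 fold change was then -0.084 (-0.24 to 0.074) for DUSP1 and -0.046 (-0.22 to 0.13) for DUSP8.

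**Figure D4:**
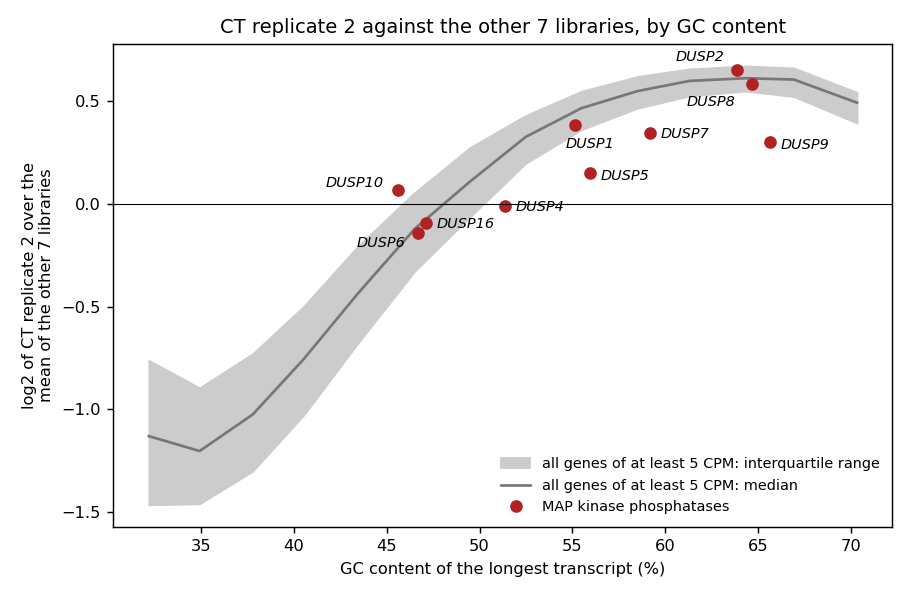
Log2 level of CT replicate 2 over the mean of the other 7 libraries (vertical axis) against the GC content of the longest transcript in percent (horizontal axis). The line and band give the median and interquartile range of all genes of at least 5 CPM in bins of 20 or more genes, and the points are the 10 members, with DUSP6 lowest at -0.14 and DUSP2 highest at 0.65.

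Some pairs of members had high correlations over the libraries. Pairs of other genes were not compared, so whether this is particular to the family was not tested. Of 45 pairs, 5 passed 0.8 with all libraries, 3 without CT replicate 2 and 6 after adjustment for GC content and length. The median correlations were 0.41, 0.42 and 0.16. Among the 45 pairs, the largest Pearson correlation of log2(CPM + 1) over the 8 libraries was that of DUSP1 and DUSP8, at 0.955. It was 0.911 over 7 libraries without CT replicate 2 and 0.937 after adjustment for GC content and length. The pair DUSP10 and DUSP16 reached 0.881, 0.919 and 0.820 under the same 3 treatments, and these were the 2 pairs above 0.8 in all of them. Without CT replicate 2 the pair DUSP10 and DUSP16 was the highest, and after the adjustment DUSP8 and DUSP16 (0.974) and DUSP1 and DUSP16 (0.953) were higher than DUSP1 and DUSP8. The pair DUSP2 and DUSP7 reached 0.833 with all libraries but 0.449 without CT replicate 2 and -0.093 after the adjustment. All members were read from the same 8 libraries, so their values share depth and base composition.

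Promoter windows of RefSeq (GRCh38.p14, 250 bases before to 50 after the annotated start) were matched for 8 members, all but DUSP4 and DUSP5, in 10 windows. They were searched on both strands for 6 motifs. The cyclic AMP response element (CRE, TGACGTCA), a binding motif of CREB and ATF factors, occurred in 1.85% of all 35116 windows and in the windows of DUSP1 and DUSP8 only among the members. DUSP8 holds it at 2 places, as do 0.0598% of all windows. The 160 bases before the RefSeq start of both genes are shown since among the members only these windows held a CRE. They run 5′ to 3′ on the gene's strand with each CRE in capitals. They lie at chr5:172771196-172771355 for DUSP1 and at chr11:1572272-1572431 for DUSP8, both on the minus strand.
DUSP1: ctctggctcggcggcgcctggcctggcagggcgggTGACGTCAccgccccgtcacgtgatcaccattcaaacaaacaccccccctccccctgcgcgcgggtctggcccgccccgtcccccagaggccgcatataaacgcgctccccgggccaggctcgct
DUSP8: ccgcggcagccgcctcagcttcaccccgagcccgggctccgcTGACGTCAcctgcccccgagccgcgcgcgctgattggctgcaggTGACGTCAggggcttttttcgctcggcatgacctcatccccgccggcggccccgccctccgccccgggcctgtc
The CRE of DUSP1 begins 125 bases before its RefSeq start, and those of DUSP8 begin 118 and 74 bases before the RefSeq start of that gene. For DUSP1 this start (172771195) is also that of the counted gene. For DUSP8 it (1572271) lies upstream of the start of the counted gene (1571920), so the distances do not hold from there. The RefSeq starts of DUSP6, DUSP7, DUSP9, DUSP10 and DUSP16 also differed from those of the counted genes. The shorter TGACG, which lies within every CRE, occurred in windows of DUSP1, DUSP8 and DUSP10 and in 24.6% of all windows. A TATA box (TATAAA) stood in the DUSP1 window, 30 bases before the start, and in 11.5% of all windows. GC boxes (GGGCGG) occurred in 9 of the 10 windows, in every matched gene but DUSP6, and in 45.0% of all windows. The AP-1 motif TGANTCA (7.71% of all windows) and the ETS motif CCGGAA (17.2%) occurred in none of the 10. These matches describe letters in these windows, and binding was not measured.

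**Figure D5:**
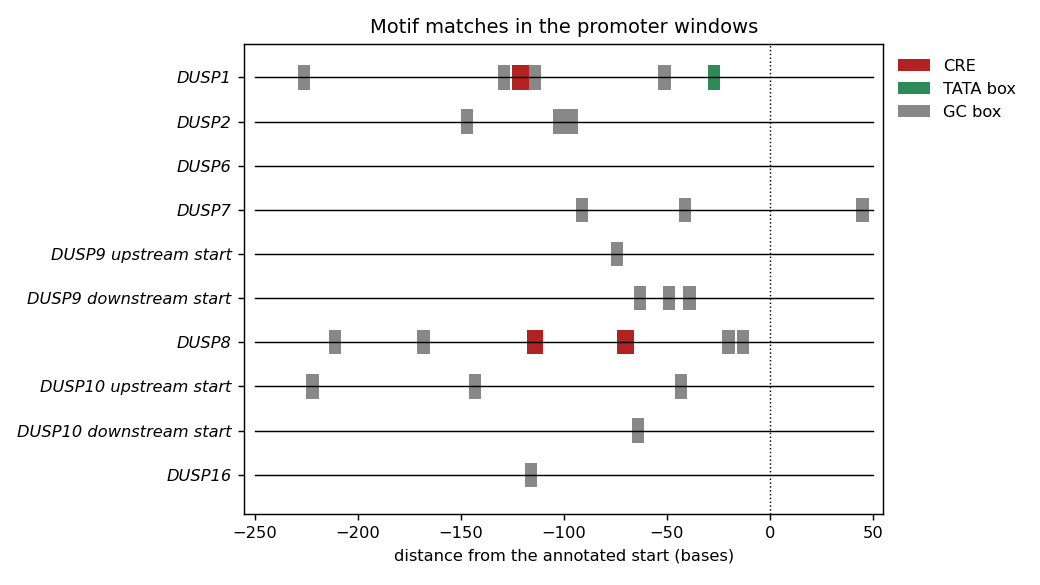
Positions of CRE, TATA box and GC box matches on either strand in the 10 promoter windows of 8 members, in bases from the RefSeq start (dotted line). CRE matches stand in the DUSP1 and DUSP8 windows.

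The genes whose pattern over the 8 libraries was most like that of the member with the highest CPM in each role group (DUSP4, DUSP7 and DUSP8) were named by Pearson correlation of log2(CPM + 1) among 11820 genes of at least 5 CPM. For DUSP4 they were GABRA3, a GABA receptor subunit (0.957), SOBP (0.942) and BTBD11 (0.930), at 0.970, 0.944 and 0.935 without CT replicate 2. For DUSP7 they were PPP1R37, the transcription factor TOX2 and the kinase MAP2K7, which phosphorylates JNK, at 0.994 each. Without CT replicate 2 these stood at 0.986, 0.992 and 0.985. For DUSP8 they were the transcription factor EBF4 (0.999), SNAP47 (0.998) and RGS14 (0.996), at 0.998, 0.996 and 0.990 without CT replicate 2. All these genes were picked as the highest among 11820 over 8 libraries, so high values are in part due to the selection. The GC content of the genes named for DUSP7 and DUSP8 was 53.9% to 66.4%, and the part of base composition in these correlations was not tested.

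The kinases that these phosphatases act on, and the kinases above them, did not pass the test either. Of 10 MAP kinases, GDNF was higher in 5 and lower in 5, with no call and a median log2 fold change of -0.015. MAPK3, the ERK with the highest level of that list per kilobase, averaged 31.2 CPM per kb in GDNF and 33.7 in CT (log2 fold change -0.12, -0.49 to 0.26, edgeR adjusted p = 0.9999). It stood at 163 CPM in CT replicate 2, its highest library, and at 99.4 to 130 CPM in the other CT libraries. Of 7 MAP kinase kinases 3 were higher and 4 lower. MAP2K3, an activator of p38, had their smallest p at a log2 fold change of -0.17 (-0.65 to 0.30). MAP2K2, an activator of ERK, stood at 106 ± 16.8 CPM in GDNF and 114 ± 29.8 CPM in CT. CT replicate 2 was again the highest library, at 18.4 CPM for MAP2K3 and 157 CPM for MAP2K2. The other CT libraries stood at 9.61 to 12.3 CPM for MAP2K3 and 91.0 to 111 CPM for MAP2K2. Of 6 RAS and RAF genes 3 were higher and 3 lower. Without CT replicate 2 the RAS and RAF genes split into 1 higher and 5 lower, the MAP kinases into 6 higher and 4 lower and the MAP kinase kinases into 5 higher and 2 lower. ARAF had the smallest p of all lists here, at 11.3 ± 0.913 CPM in GDNF and 14.2 ± 3.03 CPM in CT (log2 fold change -0.32, -0.68 to 0.042, edgeR adjusted p = 0.9999), and HRAS the highest level per kilobase, at 38.9 CPM per kb in GDNF and 44.7 in CT. CT replicate 2 was the highest library of both genes. It stood at 18.6 CPM for ARAF, with the other CT libraries at 12.2 to 13.3 CPM. For HRAS it stood at 109 CPM, with the other CT libraries at 62.7 to 82.8 CPM.

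Other phosphatases gave the same outcome. Of 7 further phosphatases that act on MAP kinases 6 were tested, of which 5 were higher and 1 lower, and none was called. Without CT replicate 2 that count was 2 higher and 4 lower, and the median log2 fold change was -0.067, beside 0.10 with all libraries. PTPN5, the striatal-enriched tyrosine phosphatase, averaged 219 ± 24.4 CPM in GDNF and 237 ± 52.6 CPM in CT. It stood at 315 CPM in CT replicate 2 and at 202 to 218 CPM in the other CT libraries. PTPRR averaged 8.45 ± 0.411 CPM in GDNF and 7.61 ± 0.369 CPM in CT (log2 fold change 0.15, -0.13 to 0.43). Of 17 listed atypical dual-specificity phosphatases and their inactive relatives, 13 were tested, with 8 higher and 5 lower and none called. DUSP26, a phosphatase of neural tissue and the highest of them per kilobase, averaged 44.5 ± 4.19 CPM in GDNF and 50.5 ± 13.8 CPM in CT. Its level was 70.7 CPM in CT replicate 2 and 40.1 to 48.1 CPM in the other CT libraries. DUSP23 had the smallest p of that list (log2 fold change -0.21, -0.56 to 0.14). The summed level of the list was 120 ± 5.77 CPM per kb in GDNF and 124 ± 9.47 CPM per kb in CT, below that of the 10 MAP kinase phosphatases in every library. Of 10 Sprouty, Spred and PEA3 genes, the other feedback genes of ERK, 5 were higher and 5 lower with none called. SPRY2 had their smallest p (log2 fold change -0.093, -0.41 to 0.23), and SPRED3 averaged 204 ± 22.9 CPM in GDNF and 203 ± 40.0 CPM in CT. SPRED3 stood at 261 CPM in CT replicate 2 and at 172 to 198 CPM in the other CT libraries.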

How the data were processed

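The authors deposited whole-number read counts for each Ensembl gene and library, without normalization. The submitters' processing notes name GRCh38 and, as tools, FastQC, cutadapt, STAR, HTSeq and DESeq2. Not given in the sources used here were tool versions, how strand and multi-mapped reads were treated, and which annotation was counted. Per the labels' protocols, total RNA from TRIzol extracts was column-purified, and an Illumina TruSeq mRNA kit was used for the libraries.

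The filter filterByExpr (at least 10 counts, total at least 15) left 19999 genes. GDNF was compared with CT by edgeR 4.0.16 in R 4.3.3, using its two-sided quasi-likelihood test with TMM scaling, a robust fit and no covariate. P values were adjusted over all genes tested by Benjamini-Hochberg, with calls at 0.05, and the script was tested on simulated data. CPM values use TMM-scaled library sizes, and intervals are 95% confidence intervals. For a gene without counts the limit would be 3 counts, or 0.0868 to 0.105 CPM by library, for counting error alone, and the lowest count of a member was 37. Length, GC content and overlaps came from GENCODE 29, whose gene positions were identical to the deposited ones for 98.7% of 58275 shared genes. GC and length offsets were smooth fits of each library's deviations.

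Alternatives were DESeq2 1.42.0, limma-voom (limma 3.58.1), other scalings and filters, an exact permutation test, offsets, a replicate block and leaving out each library. All 10 members are named. Of every other list, the gene of smallest p among those of at least 5 CPM and the gene of highest level per kilobase are named. A gene that this rule names among the MAP kinases is not reported here. Members, lists and tests were chosen with earlier results of these data known.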

Additional observations from a re-analysis of the deposited data

Results flagged for a closer look

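Among 20 sets of 4 libraries (10 members in each group), 2 had 1 value far from the other 3 by Dixon's test, which chance gives in about 1 of 20. DUSP2 stood at 4.09 CPM in CT replicate 2, while CT replicates 1, 3 and 4 held 2.30 to 2.50 CPM. DUSP9 stood at 1.17 CPM in CT replicate 4, while CT replicates 1 to 3 held 2.03 to 2.20 CPM.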

How the results depend on the processing

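Over 200 alternative values, member fold changes (log2, GDNF over CT) stayed between -0.25 and 0.22, no member was called, and 34 had the opposite sign to the reported value; the cause was not tested. No gene was called under any alternative, with 80 to 1024 genes at an unadjusted p under 0.05 against 176 as reported, and 391 without CT replicate 2. Limma-voom gave 0.19 for DUSP2, -0.0030 for DUSP4, 0.019 for DUSP7, 0.12 for DUSP9 and 0.0027 for DUSP8. GC and length offsets gave 0.12 for DUSP2, 0.042 for DUSP7 and 0.092 for DUSP9, and with CT replicate 2 also left out, a choice made after seeing the data, 0.16, 0.00016 and 0.0067. The log2(CPM + 1) means of the exact permutation test gave 0.011 for DUSP2 and 0.011 for DUSP9, whose value was 0.0040 with library totals and 0.0053 without a filter. Leaving out each library gave -0.10 to 0.22 for DUSP2, -0.056 to 0.13 for DUSP5, -0.088 to 0.074 for DUSP7, -0.18 to 0.087 for DUSP9, -0.24 to 0.047 for DUSP8 and -0.14 to 0.031 for DUSP16. With the longest transcript as length, DUSP4 averaged 134 and DUSP7 11.04 CPM per kb.

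Same-numbered libraries' deviations correlated at 0.72, -0.65, 0.32 and -0.83. Library deviations also went with GC content. Their Spearman correlation with it was -0.81 in GDNF replicate 1 and -0.80 in CT replicate 1, but 0.73 in GDNF replicate 4 and -0.85 in CT replicate 4. The correlations between libraries therefore cannot show whether equal numbers mark pairs, and the main fit used no pairs. With a replicate block 0 genes were called and 112 had an unadjusted p under 0.05. The replicate block gave 0.018 for DUSP2 and 0.019 for DUSP9, and with offsets as well 0.12 for DUSP2, 0.043 for DUSP7 and 0.11 for DUSP9. Depth limits DUSP9 and DUSP2 most, with 37 to 123 counts per library.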
